A study of Mus musculus with 8 samples.

Results

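Prolactin signalling to the milk genes was followed through 7 genes: the receptor Prlr, the kinase Jak2, the transcription factors Stat5a, Stat5b and Elf5, and the inhibitors Socs2 and Cish. They were chosen by name as this pathway, and every probe on the array whose transcript belongs to one of them was used. All 7 genes were found among the 14131 genes tested, through 11 of the 55681 probes, and each of the 11 probes was well above background in all 16 tumours. The tumours were pieces of MMTV-PyMT mammary carcinoma, in which the mouse mammary tumour virus promoter drives the polyoma middle T oncogene, grown in the mammary gland of wild-type FVB mice. The decoy receptor RANK-Fc, which takes up RANK ligand, was given into the peritoneum at 10 mg/kg, 3 times a week. Successive rounds of transplantation, called passages, gave 6 groups. Passage 1 held 2 control tumours and 3 treated with RANK-Fc. Passage 2 held 2 control tumours, 3 that received RANK-Fc in passage 2 alone ("current"), 3 whose RANK-Fc was given before passage 2 alone ("prior") and 3 with both ("prior and current"). The labels call prior treatment neoadjuvant and current treatment adjuvant; placing the prior treatment in passage 1 is a reading of the group codes. The labels carry a different animal code for each tumour and do not name the passage 1 tumour behind each passage 2 tumour, so the p-values measure the spread between these tumours. The 16 tumours were hybridised in pairs on 8 arrays of 1 slide, with 47.5% to 56.5% of spots well above background per channel and 0 saturated spots.

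Prolactin binding brings together a pair of receptor chains and activates JAK2, which phosphorylates STAT5A and STAT5B. The phosphorylated STAT5 proteins pair, enter the nucleus and bind promoters of milk protein genes. ELF5, an ETS family transcription factor, acts with STAT5 to specify the milk-secreting alveolar cell, and Stat5a is the more needed of the 2 STAT5 genes in the mammary gland. CISH and SOCS2 are made in response to cytokines that use STAT5 and dampen the signal, with SOCS2 best known for limiting growth hormone action. The arrays measured transcript levels only, not phosphorylation.

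STAT5 dimers are known to bind the palindrome TTCNNNGAA, which reads the same on both strands. It was searched in the 250 bases before each annotated start of the pathway and casein genes, using RefSeq promoter windows of build GRCm38.p6. Windows were found for 9 of the 12 genes, namely Prlr, Jak2, Stat5a, Stat5b, Elf5, Cish, Csn1s1, Csn1s2a and Csn2. The letters occurred in 3 of these genes, in 1 of the 3 Prlr windows and in the only window of Csn1s1 and of Csn2. The 9 genes had 14 windows in all. Of all 32851 windows, 2306 held them, or 7.02%. Counted by gene, 8.13% of all 27025 genes held them in 1 window or more. The 3 matches are shown because they sit at both ends of the pathway, the receptor and the milk genes, with the matching letters in capitals and 10 bases on each side.
Prlr: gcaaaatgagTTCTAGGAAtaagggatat
Csn1s1: tttgtaacaaTTCTTAGAAtttatgtaaa
Csn2: tcacgtagacTTCTTGGAAttgaagggac
The Prlr stretch lies at chr15:10223786-10223814 on the plus strand, and its match begins 110 bases before that start. The Csn1s1 stretch lies at chr5:87666098-87666126 on the plus strand, 100 bases before the start. The Csn2 stretch lies at chr5:87699500-87699528 on the minus strand, 93 bases before the start. A match describes letters in a window, not a bound site, and no binding was measured here.

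Of the 7 genes, Socs2 varied most and changed with passage: its transcript was 2.72-fold lower in passage 2 than in passage 1. Stat5a and Elf5 were 1.65-fold and 1.49-fold higher in passage 2. No gene of the pathway passed the threshold for current or prior RANK-Fc. Elf5 rose and fell with the casein genes from tumour to tumour, while Jak2 followed markers of T and NK cells. Levels are log2 intensities of the brightest probe of each gene. Differences between groups come from a limma fit of all 16 channels and are called at a Benjamini-Hochberg adjusted p under 0.05 over 14131 genes; the adjusted p-values of differences below are from this fit. Passage 2 was set against passage 1 over control and currently treated tumours, which exist in both passages.

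**Figure D1:**
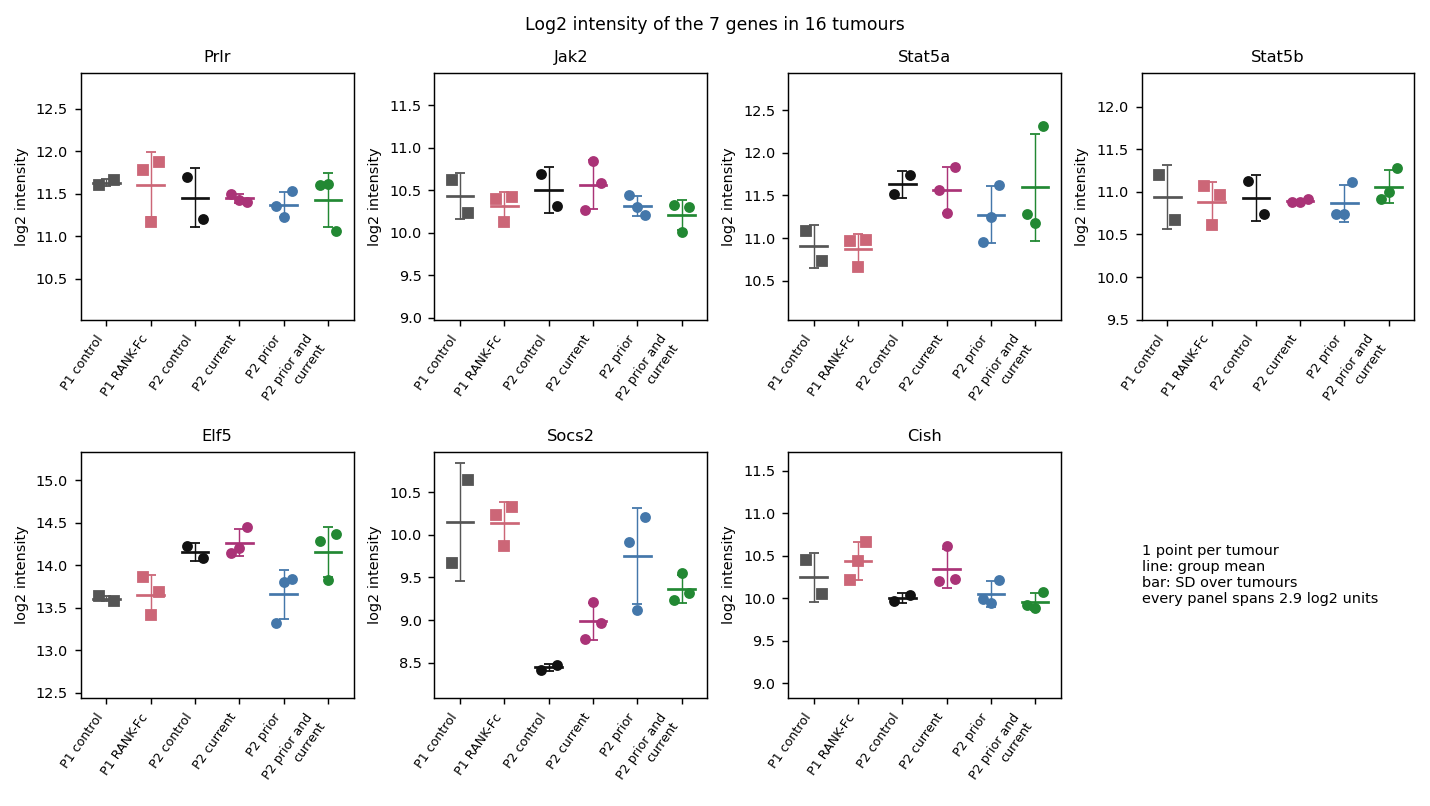
Log2 intensity (vertical axis) of each of the 7 genes in 16 tumours by group, with 1 point per tumour, a line at the group mean and a bar for the SD over tumours; squares are passage 1 and circles passage 2. Socs2 falls from 9.67 or above in passage 1 to between 8.41 and 9.22 in the control and current tumours of passage 2, while Prlr and Stat5b stay within 0.81 and 0.67 log2 units over all tumours.

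Socs2, the feedback inhibitor best known for the growth hormone receptor, read 9.67 and 10.65 in the passage 1 controls and 10.24, 9.87 and 10.33 in passage 1 with RANK-Fc. It read 8.41 and 8.47 in the passage 2 controls, and 8.77, 9.22 and 8.96 with current RANK-Fc. All 5 passage 1 tumours were above these 5 passage 2 tumours. With prior RANK-Fc it read 9.92, 9.12 and 10.22, and with prior and current RANK-Fc 9.23, 9.55 and 9.32. All 6 tumours with prior treatment were above both passage 2 controls, and 2 of them fell inside the passage 1 range. By group mean the order was passage 1 control at 10.16 ± 0.69 (SD, n = 2), passage 1 RANK-Fc at 10.15 ± 0.24 (SD, n = 3), prior at 9.75 ± 0.57 (SD, n = 3), prior and current at 9.37 ± 0.17 (SD, n = 3), current at 8.98 ± 0.22 (SD, n = 3) and passage 2 control at 8.44 ± 0.04 (SD, n = 2). The first 3 groups overlapped. The prior group also overlapped prior and current, and overlapped current through its lowest tumour at 9.12. The last 3 groups did not overlap one another, though the highest current tumour at 9.22 lay just below the lowest with both at 9.23.

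Socs2 was lower in passage 2 by a log2 difference of -1.44 ± 0.23 (SE; limma, adjusted p = 0.00172), in a comparison that called 12.1% of all genes. Between the controls alone the difference was -1.66 ± 0.35 (SE; adjusted p = 0.0237), where 3.34% of genes were called. Socs2 was also the 1 gene of the 7 called in the F test of any difference among the 6 groups (adjusted p = 0.0284), against 4.95% of all genes. The difference between controls rests on few tumours: without passage 1 control 2 it was -0.94 (adjusted p = 0.155), and without passage 2 control 1 or 2 the adjusted p was 0.118 or 0.247. The F test also lost the call when 1 of 5 tumours was left out, passage 1 RANK-Fc 1 or 3, passage 2 control 1 or 2, or prior and current tumour 1 (adjusted p up to 0.0895). The passage difference of Socs2 passed without any single tumour, from -1.77 to -1.06. A fit to the log ratios within arrays alone called 0 genes in any of the 12 comparisons, with passage differences of -1.39 for Socs2, 0.57 for Elf5 and 0.77 for Stat5a (adjusted p = 0.280, 0.459 and 0.359). All 3 Socs2 probes read it alike, with differences of -1.44, -1.36 and -1.28. The brightest probe is printed 10 times on each array, with a median SD of 0.17 log2 between its spots.

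The Socs2 differences with prior RANK-Fc did not pass the threshold. Against the passage 2 controls the difference with prior RANK-Fc alone was 1.26 ± 0.30 (SE; adjusted p = 0.215, limma), and with prior and current RANK-Fc 0.77 ± 0.32 (SE; adjusted p = 0.468). Averaged over both passage 2 backgrounds it was 0.77 ± 0.22 (SE; adjusted p = 0.128), in a comparison that called 0.403% of genes. These comparisons share the passage 2 controls with the passage comparison. The term for prior combined with current treatment was -0.99 ± 0.39 for Socs2 (SE; adjusted p = 0.667). The 3 probes gave differences of 0.96, 1.10 and 1.26 with prior RANK-Fc alone.

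Markers of luminal progenitors, the mammary cells thought to give rise to alveolar cells, moved with Socs2. The mean log2 level of the 6 measured markers of 7 listed lay between 10.53 and 11.14 in passage 1, 9.07 and 10.02 in the passage 2 control and current tumours, and 9.27 and 10.77 in the tumours with prior RANK-Fc. Cd200, Itgb3, Kit and Tspan8 of that list fell with passage, in a comparison that called 12.1% of all genes, 593 higher and 1116 lower. Aldh1a3 and Cd14 were also measured, and their differences are not given here. Across the 16 tumours Socs2 correlated with this mean at r = 0.77 (permutation p = 0.0007) and rho = 0.71 (permutation p = 0.00283), with adjusted p of 0.0264 and 0.0741 over 96 relations of genes or the casein mean to marker lists. Without the 2 tumours farthest from the median of the marker mean r was 0.76, and with group means removed it was 0.09, so the relation lay between the groups. Elf5 ran opposite to the same mean, at r = -0.71 (permutation p = 0.00266, adjusted p = 0.0511) and rho = -0.69 (permutation p = 0.00386, adjusted p = 0.0741), at -0.66 without the 2 extreme tumours and at -0.11 with group means removed. Stat5a ran opposite to it as well, at r = -0.61 (permutation p = 0.0114, adjusted p = 0.182). So did the casein mean, at r = -0.58 (permutation p = 0.0175, adjusted p = 0.182). With group means removed these were 0.16 for Stat5a and 0.0029 for the casein mean. In whole tumours, fewer cells of a type and less RNA per cell cannot be told apart. The part of luminal progenitor content in the Socs2, Elf5, Stat5a and casein differences was not tested.

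Elf5 read 13.63 and 13.58 in the passage 1 controls and 13.86, 13.41 and 13.69 with RANK-Fc in passage 1. In passage 2 it read 14.23 and 14.08 in the controls and 14.14, 14.21 and 14.45 with current RANK-Fc, all above every passage 1 tumour. With prior RANK-Fc alone it read 13.33, 13.81 and 13.84, and with prior and current RANK-Fc 14.29, 13.82 and 14.37. Of the prior tumours 2 lay inside the passage 1 range and 1 below it. By group mean the order was current at 14.26 ± 0.16, prior and current at 14.16 ± 0.29, passage 2 control at 14.16 ± 0.10, prior at 13.66 ± 0.29, passage 1 RANK-Fc at 13.65 ± 0.23 and passage 1 control at 13.61 ± 0.035 (SD, n = 2 or 3). The first 3 groups overlapped one another and so did the last 3, and 1 tumour of prior and current also fell among the last 3.

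Elf5 was higher in passage 2 by 0.57 ± 0.14 log2 units (SE; limma, adjusted p = 0.0212). The call was lost when 1 of 5 tumours was left out, passage 1 control 1 or 2, passage 1 RANK-Fc 2, or passage 2 control 1 or 2, with adjusted p from 0.055 to 0.0912 and a difference from 0.52 to 0.61. Prior RANK-Fc alone against the passage 2 controls gave -0.49 ± 0.19 (SE; adjusted p = 0.523). Prior and current RANK-Fc against prior RANK-Fc alone gave 0.48 ± 0.17 (SE; adjusted p = 0.339). Current RANK-Fc averaged over its 3 backgrounds gave 0.23 ± 0.11 (SE; adjusted p = 0.718). None of the RANK-Fc differences of Elf5 passed the threshold.

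Stat5a read 11.08 and 10.72 in the passage 1 controls and 10.97, 10.66 and 10.98 with RANK-Fc in passage 1. It read 11.52 and 11.74 in the passage 2 controls and 11.57, 11.30 and 11.84 with current RANK-Fc, again all above passage 1. With prior RANK-Fc it read 10.95, 11.24 and 11.62, and with prior and current RANK-Fc 11.29, 11.18 and 12.32. Prior and current tumour 3 was the highest of all 16 and gave that group the widest spread, an SD of 0.63. The group means were 11.63 in passage 2 control, 11.60 in prior and current, 11.57 in current, 11.27 in prior, 10.90 in passage 1 control and 10.87 in passage 1 RANK-Fc. Neighbours in this order overlapped, the prior group reaching passage 1 through 1 tumour.

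Stat5a was higher in passage 2 by 0.72 ± 0.20 log2 units (SE; limma, adjusted p = 0.0317). It kept its direction without any single tumour, from 0.56 to 0.86, but lost the call without passage 1 control 2, passage 1 RANK-Fc 2 or 3, passage 2 control 1 or 2, or current tumour 3, with adjusted p from 0.0516 to 0.151. Median centring of each channel also ended the call (0.57, adjusted p = 0.124). So did leaving out the array of current tumour 3 (0.63, adjusted p = 0.0532), an alternative added after seeing the data. Its close relative Stat5b gave 0.01 ± 0.12 (SE; 95% interval from -0.25 to 0.28). No test set the Stat5a and Stat5b differences against each other.

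**Figure D2:**
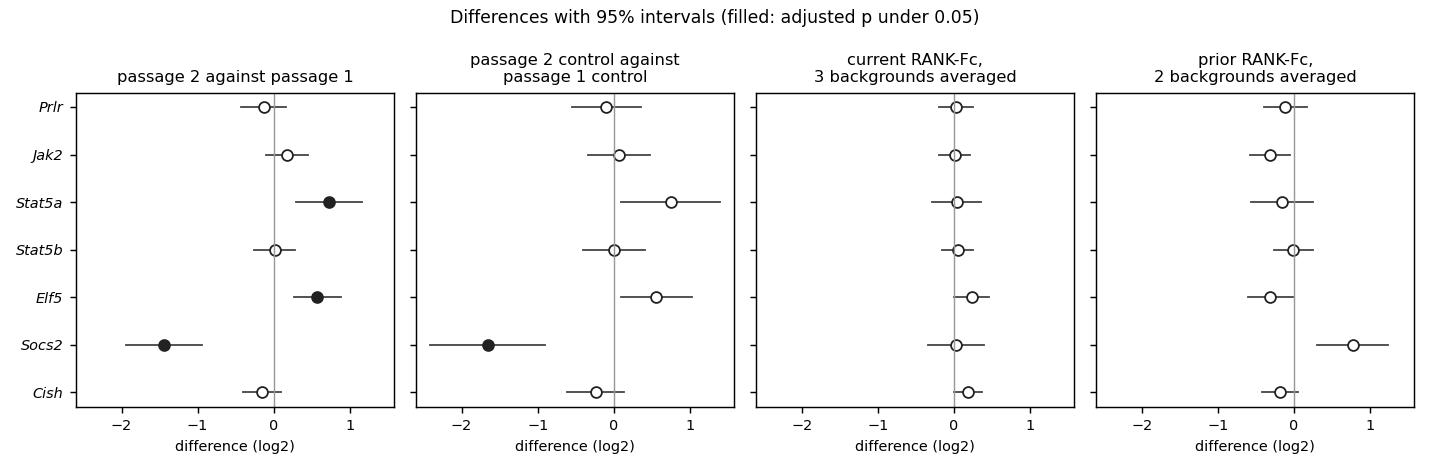
Differences (log2, horizontal axis) of the 7 genes in 4 comparisons, with points for the fitted difference and lines for its 95% interval; filled points passed an adjusted p under 0.05. Socs2, Elf5 and Stat5a pass in passage 2 against passage 1, Socs2 alone in the controls, and none of the 7 with current or prior RANK-Fc.

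The receptor and Stat5b showed no called difference. Prlr ran from 11.06 to 11.87 over the 16 tumours with a median of 11.52, and its group means lay between 11.37 and 11.63, with every pair of groups overlapping except passage 1 control, which lay above all current and all prior tumours. Its passage difference was -0.13 ± 0.14 (SE; 95% interval from -0.43 to 0.17), and its dimmer second probe gave 0.09 ± 0.11. Stat5b ran from 10.61 to 11.28 with a median of 10.91, and its second probe gave a passage difference of 0.03. The 95% interval of the Prlr difference with current RANK-Fc, averaged over 3 backgrounds, ran from -0.20 to 0.25, and that of Stat5b from -0.15 to 0.25. Their SDs over the tumours stood at percentiles 60.4 and 46.8 among all genes, whereas Socs2 stood at 96.4, Stat5a at 89.7 and Elf5 at 81.6. Stat5b correlated with the mean of 9 adipocyte markers at r = 0.73 (permutation p = 0.0011, adjusted p = 0.0264 over the 96 relations) and rho = 0.73 (permutation p = 0.00212, adjusted p = 0.0741). That r was 0.70 without the 2 tumours most extreme in the markers and 0.84 with group means removed. The adipocyte mean ran from 7.24 to 10.52 over the tumours, and its part in the Stat5b level was not tested.

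Cish, the other STAT5 feedback inhibitor, ran from 9.88 to 10.66, with an SD at percentile 64.9 among all genes. It read 9.96 and 10.04 in the passage 2 controls and 10.20, 10.62 and 10.23 with current RANK-Fc, without overlap. The difference was 0.39 ± 0.15 (SE; adjusted p = 0.999), in a comparison in which 4.08% of genes had an unadjusted p under 0.05 and 0% passed. With prior RANK-Fc in both groups the means were 10.05 ± 0.15 (SD, n = 3) for prior and 9.96 ± 0.10 (SD, n = 3) for prior and current. The same term for prior combined with current treatment was -0.47 ± 0.20 (SE; adjusted p = 0.682). In passage 1 the RANK-Fc difference of Cish was 0.22 ± 0.15 (SE; adjusted p = 1.00), and the difference of the effect between passages was 0.17 ± 0.21 (SE; adjusted p = 1.00).

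Counts of the 7 genes are read against the share of all genes. For current RANK-Fc averaged over 3 backgrounds 0 of 7 passed the adjusted threshold of the limma fit, as did 0% of all genes, and 1 of 7, Elf5, had an unadjusted p under 0.05 against 6.9% of all genes. RANK-Fc in passage 1 gave 0 of 7 by either rule, against 0% and 1.66%. Current RANK-Fc in passage 2 gave 0 of 7 adjusted, against 0%, and Cish unadjusted, against 4.08%. Prior RANK-Fc alone gave 0 of 7 adjusted, against 0.00708%, and Socs2 and Elf5 unadjusted, against 7.76%. Prior and current RANK-Fc against control gave 0 of 7 adjusted, against 0.0849%, and Socs2 unadjusted, against 9.18%.

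Prior and current against prior RANK-Fc gave 0 of 7 adjusted, against 0%, and Elf5 unadjusted, against 10.2%. Prior RANK-Fc averaged over both backgrounds gave 0 of 7 adjusted, against 0.403%, and 3 of 7 unadjusted, namely Socs2, Elf5 and Jak2, against 15.7%. The difference of the current effect between passages gave 0 of 7 by either rule, against 0% and 1.83%. The term for prior combined with current treatment gave 0 of 7 adjusted, against 0%, and Socs2 and Cish unadjusted, against 6.96%. The 3 genes called between passages were also the 3 with an unadjusted p under 0.05, against 26.5% of all genes. Between the controls Socs2, Elf5 and Stat5a had an unadjusted p under 0.05, against 15.6%, and in the F test Socs2, Elf5, Cish and Stat5a did, against 20.7%.

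Jak2, the kinase bound to the receptor, showed no called difference between groups. It read 10.62 and 10.24 in the passage 1 controls, 10.40, 10.13 and 10.43 with RANK-Fc, and 10.69 and 10.31 in the passage 2 controls. It read 10.27, 10.84 and 10.59 with current RANK-Fc, 10.44, 10.30 and 10.21 with prior, and 10.33, 10.01 and 10.30 with both. All 6 groups overlapped one another. Prior RANK-Fc averaged over both backgrounds gave -0.32 ± 0.12 (SE; limma, adjusted p = 0.229).

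The 3 genes most like Jak2 over the 16 tumours, of 14116 compared, were Gvin1 at r = 0.97, the leukocyte antigen Cd52 at r = 0.97 and the T cell chemokine receptor Cxcr6 at r = 0.96. Jak2 also correlated with the mean of 7 T and NK cell markers (Cd3e, Cd3d, Cd3g, Cd8a, Cd4, Nkg7 and Gzmb, of 8 listed) at r = 0.94 (permutation p = 1e-05, the smallest 100000 resamples can give) and rho = 0.95 (permutation p = 2e-05). The adjusted p-values over the 96 relations were 0.00096 and 0.00192. With group means removed r was 0.92, and without the 2 tumours most extreme in the markers it was 0.88. The marker mean was lowest at 7.92, in a tumour with prior and current RANK-Fc, and highest at 9.48 in current tumour 2, the tumour with the highest Jak2. Jak2 correlated with the mean of 8 macrophage markers as well, at r = 0.75 (permutation p = 0.00093, adjusted p = 0.0264) and rho = 0.70 (permutation p = 0.00327, adjusted p = 0.0741), at 0.59 without the 2 extreme tumours and 0.64 with group means removed. All members but Jak2 correlated with the T and NK cell markers at r between -0.35 and 0.31. With the macrophage markers the same members had r between -0.10 and 0.46, Cish being the highest. The part of T and NK cell or macrophage content in the Jak2 level was not tested.

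**Figure D3:**
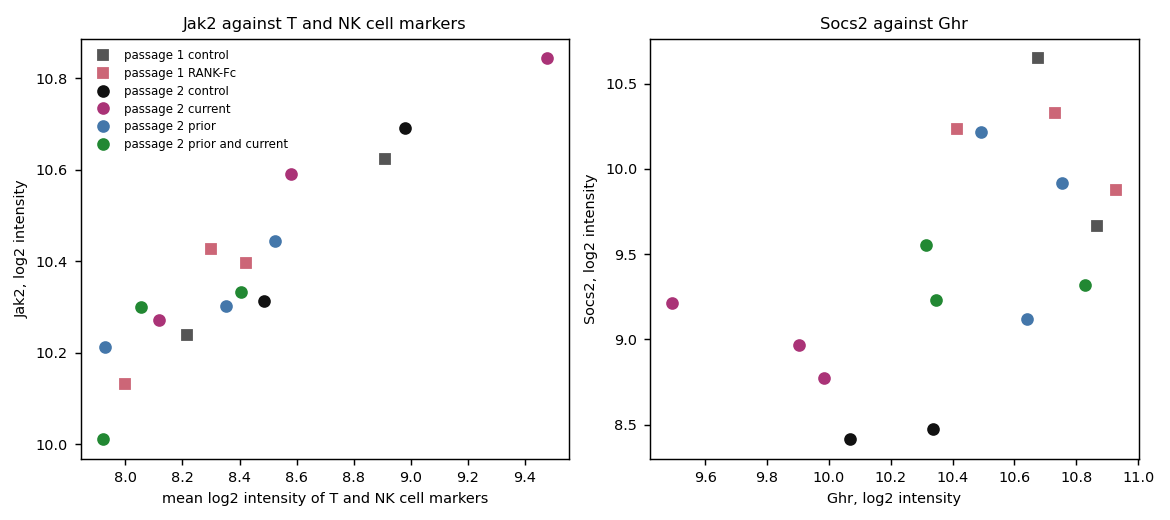
Left, Jak2 log2 intensity against the mean log2 intensity of 7 T and NK cell markers in 16 tumours; right, Socs2 against the growth hormone receptor gene Ghr, both as log2 intensity. Jak2 rises with the markers within and across groups (r = 0.94). Socs2 and Ghr have r = 0.54, and -0.42 with group means removed. Both are low in most passage 2 control and current tumours. Ghr in passage 2 control 2, at 10.34, lies among the tumours with prior RANK-Fc.

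The casein genes encode the main milk proteins and are the textbook output of prolactin, STAT5 and ELF5. Their mean log2 level over Csn1s1, Csn1s2a, Csn1s2b, Csn2 and Csn3 read 9.68 and 9.52 in the passage 1 controls, 10.92, 8.99 and 11.40 in passage 1 with RANK-Fc, and 11.15 and 11.65 in the passage 2 controls. It read 12.52, 13.13 and 15.18 with current RANK-Fc, 8.83, 11.21 and 10.42 with prior and 13.15, 11.57 and 12.49 with both. The lowest and highest tumours were thus prior tumour 1 and current tumour 3, which differ by 6.35 log2 units. Csn1s1, Csn1s2a and Csn2 rose with passage, by 3.59 ± 0.68, 3.16 ± 0.89 and 4.71 ± 1.03 (SE; limma, adjusted p = 0.00476, 0.0379 and 0.0111). Csn1s2b was 0.97 ± 0.65 higher and Csn3 0.06 lower (-0.06 ± 0.20), and neither passed. The call of Csn2 was lost without passage 1 control 2 or passage 2 control 2 (adjusted p up to 0.0561), and that of Csn1s2a when any 1 of 8 tumours of both passages was left out (up to 0.147), with processed signals and with no filter on dim probes. No casein passed the threshold with current RANK-Fc, where Csn1s2a, averaged over 3 backgrounds, differed most, by 2.98 ± 0.67 (SE; adjusted p = 0.506).

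Elf5 followed the casein mean closely, at r = 0.90 over the 16 tumours (permutation p = 1e-05, the smallest possible, adjusted p = 0.00784 over 14112 genes) and rho = 0.85 (permutation p = 5e-05, adjusted p = 0.0181). Only 6 genes of the 14112 had a higher r, and 3.26% of all genes passed the adjusted threshold by Pearson's r and 2.51% by Spearman's rho. Prior tumour 1, the lowest in caseins, was also the lowest in Elf5, and current tumour 3 was the highest in both. Without these 2 tumours r was 0.87. Within the 11 tumours of passage 2 r was 0.87 (permutation p = 0.00047) and rho 0.75 (permutation p = 0.0112), with an adjusted p for r of 0.166 where 0% of genes passed. With group means removed r was 0.80 (exact permutation p = 0.0114, from 5184 arrangements within groups, adjusted p = 1.00). By this test 3.65% of all genes had an unadjusted exact p under 0.05. With 5184 arrangements an adjusted call would need many genes at or near the smallest possible p, so the adjusted value decides little.

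The relation was closest for Csn1s1 and Csn2. Elf5 correlated with Csn1s1 at 0.91, Csn2 at 0.90, Csn1s2a at 0.87, Csn1s2b at 0.62 and Csn3 at 0.58. It was 0.90 for the log ratios within the 8 arrays (exact permutation p = 0.0026). Under median centring of each channel in place of loess and Aquantile, r fell to 0.66 with an adjusted p of 0.111, which ends the call. The casein and Elf5 values of a tumour come from the same channel, and tumours share arrays in pairs. With the fitted dye term removed r was 0.90.

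**Figure D4:**
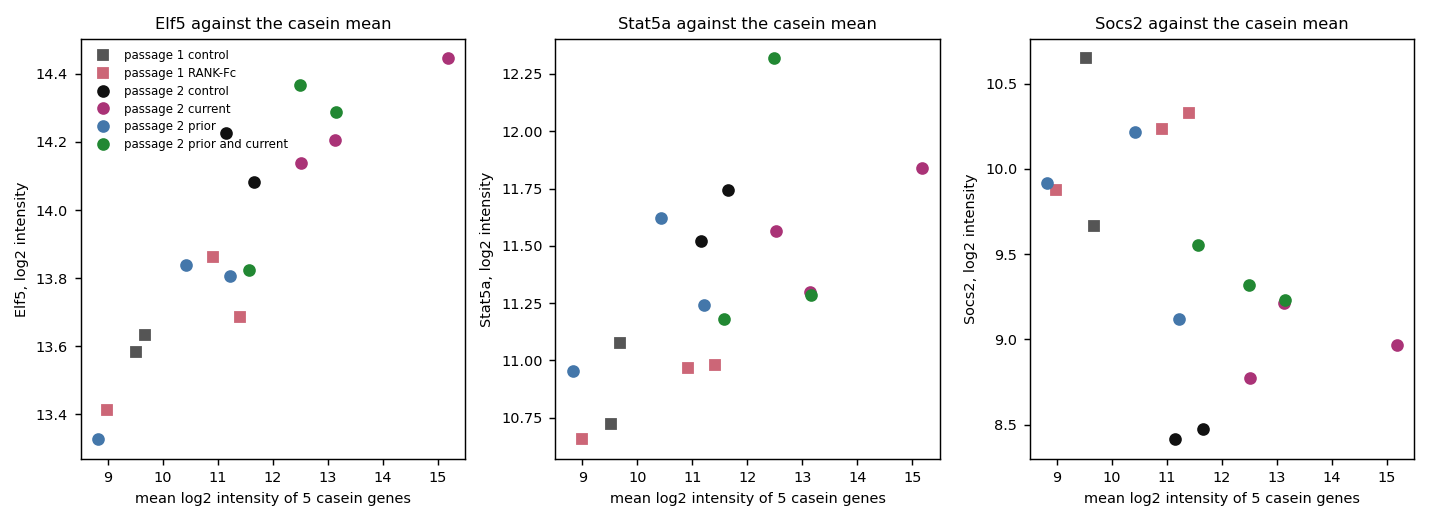
Log2 intensity of Elf5, Stat5a and Socs2 (vertical axes) against the mean log2 intensity of 5 casein genes in 16 tumours, with 1 point per tumour, squares for passage 1 and circles for passage 2. Elf5 rises along the whole range (r = 0.90), Stat5a rises with more scatter (r = 0.65), and Socs2 falls with more scatter (r = -0.55).

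The other members were less close to the caseins, and 1 of the 7 passed in all. Stat5a had r = 0.65 (permutation p = 0.00678, adjusted p = 0.0907) and rho = 0.71 (permutation p = 0.0029, adjusted p = 0.0668). Without the 2 extreme tumours its r was 0.58, and with group means removed 0.46 (exact permutation p = 0.112). Socs2 had r = -0.55 (permutation p = 0.0271, adjusted p = 0.177) and rho = -0.60 (permutation p = 0.0161, adjusted p = 0.137), which became -0.43 within passage 2 (permutation p = 0.190) and -0.10 with group means removed. Without the 2 extreme tumours the r of Socs2 was -0.53. Jak2 at r = 0.29, Stat5b at 0.22, Prlr at -0.05 and Cish at 0.00148 had adjusted p-values between 0.558 and 0.998. A p above the threshold does not show that these levels are unrelated to the caseins.

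Of the 21 pairs among the 7 genes, Stat5a and Elf5 were the closest, at r = 0.80 (permutation p = 0.00017, adjusted p = 0.014 over all genes compared) and rho = 0.83 (permutation p = 0.0002). The r was 0.75 without the 2 tumours most extreme in Stat5a, 0.68 within passage 2 and 0.67 with group means removed (exact permutation p = 0.054). Elf5 and Socs2 ran opposite, at r = -0.68 (permutation p = 0.00477, adjusted p = 0.0543) and rho = -0.64 (permutation p = 0.00925), with r = -0.68 without the 2 tumours most extreme in Elf5 and r = -0.10 once group means were removed. Stat5a and Stat5b had r = 0.51 (permutation p = 0.0429, adjusted p = 0.189) and rho = 0.39 (permutation p = 0.141), and r was 0.13 without the 2 tumours most extreme in Stat5a, so the pooled value rested on those tumours. It was 0.60 within passage 2 and 0.62 with group means removed (exact permutation p = 0.0139), with prior and current tumour 3, the most extreme, in both.

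The genes most like Elf5 were Esrra, a nuclear receptor of energy metabolism, at r = 0.93, Acss2, which makes acetyl-CoA from acetate, at 0.92, and the milk gene Wap, encoding whey acidic protein, at 0.92. With group means removed these were 0.84, 0.89 and 0.83. Stat5a was most like the ubiquitin-conjugating enzyme gene Ube2n, Dcun1d5 and Rab3gap2, at 0.92 each. Socs2 was most like Rtn1, Pcdhb20 and Plekhb1, at 0.87 to 0.89, which fell to between 0.38 and 0.48 with group means removed. Stat5b was most like Dnajb6, Ppp1r21 and Gphn at 0.81 to 0.85, Prlr like Gm14308, Myadm and Prss16 at 0.80 to 0.85, and Cish like Slitrk4, Exoc3l4 and Traf2 at 0.74 to 0.75. These are the top 3 of 14116 genes for each member, over 16 tumours.

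The counts over the wider pathway lists are read against the 12.1% of all genes called between passages, of which 593 were higher and 1116 lower in passage 2. Among ligands and other receptors of the cytokine family, 11 of 13 listed genes were measured, and the probes of the ligands Prl and Gh did not pass the background filter. With passage 0 of the 11 rose and 3 fell, against 12.1% of all genes called: the growth hormone receptor Ghr, the leukaemia inhibitory factor receptor Lifr and the oncostatin M receptor Osmr. The median difference of the list was -0.01, as that of all genes. Ghr read 10.87 and 10.68 in the passage 1 controls, 10.41, 10.93 and 10.73 with RANK-Fc, 10.07 and 10.34 in the passage 2 controls and 9.98, 9.49 and 9.90 with current RANK-Fc. It read 10.75, 10.64 and 10.49 with prior RANK-Fc and 10.35, 10.31 and 10.83 with both. Of the 5 control and current tumours of passage 2, 4 were the lowest of all 16. Ghr fell with passage by 0.69 log2 units (-0.69 ± 0.11, SE; limma, adjusted p = 0.00192) and rose with prior RANK-Fc averaged over both backgrounds by 0.61 ± 0.11 (SE; adjusted p = 0.0338). The prior call was lost when any 1 of 10 tumours was left out and under median centring (0.85, adjusted p = 0.0560), the mean over probes, no dye term and only the groups compared. Il3ra, an interleukin receptor chain, passed in the F test alone (adjusted p = 0.0474). Lifr fell by 0.64 and Osmr by 0.71, and the Lifr call was lost without passage 1 control 1, passage 1 RANK-Fc 1, passage 2 control 1 or 2, or current tumour 1, and with the mean over probes. Socs2, which acts on the growth hormone receptor, showed the same 2 directions, of which the prior one did not pass. The pair was chosen after its values were seen; Socs2 and Ghr had r = 0.54 (permutation p = 0.0313, adjusted p = 0.226) and rho = 0.61 (permutation p = 0.0141), r = 0.58 without the 2 tumours most extreme in Ghr, and -0.42 with group means removed.

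Of 8 other JAK and STAT genes measured, 1 fell with passage and 0 rose, a share near the 12.1% of all genes. Jak1, a kinase used by many interferon and interleukin receptors, fell by 0.70 log2 units (-0.70 ± 0.15, SE; limma, adjusted p = 0.0112), and the list's median difference was 0.17 against -0.01 for all genes. The Jak1 call was lost without passage 2 control 2 (adjusted p = 0.0669). Of 15 other inhibitors measured, Ptpn2, a phosphatase of JAK kinases, and Socs5 fell with passage, by 0.45 and 0.41 log2 units, and 0 rose, again near the 12.1% of all genes. The list's median difference was -0.12. The Ptpn2 call was lost without passage 1 control 1 or 2 or passage 2 control 2 (adjusted p up to 0.0924), and the Socs5 call when any 1 of 10 tumours was left out (up to 0.191). The Socs5 call was kept in 13 of 29 alternatives, and was also lost with no background subtraction, processed signals, quantile normalization, no filter on dim probes and only the groups compared.

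Of 13 ETS factors related to Elf5, 1 rose and 5 fell with passage, against 12.1% of all genes called. Elf5 changed in the direction opposite to 5 of these 6, in a comparison where lower calls outnumbered higher ones over all genes as well. Elf3, an epithelial factor, rose by 0.50 ± 0.11 (SE; limma, adjusted p = 0.0124). Etv1 fell by 2.16 log2 units (-2.16 ± 0.22, SE; adjusted p = 0.000176) and Etv5 by 1.01 (-1.01 ± 0.14, SE; adjusted p = 0.000667). Ets1, Etv4 and Spdef fell by 0.61, 0.49 and 0.93. Etv1 read between 12.93 and 13.61 in passage 1, between 10.37 and 12.07 in the passage 2 control and current tumours, and between 12.25 and 13.15 in the 6 tumours with prior RANK-Fc. With prior RANK-Fc averaged over both backgrounds Etv1 rose by 1.58 ± 0.21 (SE; adjusted p = 0.00748) and Spdef, a factor of secretory epithelium, by 1.56 ± 0.27 (SE; adjusted p = 0.0303). The list's median difference with passage was -0.26. The passage calls of Etv1, Etv5 and Ets1 held without any single tumour. That of Elf3 was lost without passage 1 control 1 or passage 2 control 2 and under median centring (adjusted p = 0.0909), that of Etv4 when any 1 of 6 tumours was left out and that of Spdef when any 1 of 12 was. The Spdef call was kept in 9 of 29 alternatives, and was also lost with processed signals, quantile normalization, median centring, no filter on dim probes, the mean over probes and no dye term. The prior call of Etv1 was lost without passage 2 control 1 (adjusted p = 0.0869) and that of Spdef when any 1 of 8 tumours was left out (up to 0.204). Both prior calls were also lost with no dye term, and that of Spdef with only the groups compared.

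Of 13 measured alveolar regulators of 16 listed, 2 rose and 2 fell with passage, against 12.1% of all genes called. Tnfrsf11a, which encodes RANK itself, rose by 0.79 ± 0.15 (SE; limma, adjusted p = 0.00456) and the survival gene Bcl2l1 by 0.34 ± 0.10 (SE; adjusted p = 0.0379). Nfib fell by 0.32 log2 units, and Foxa1, a factor of hormone-sensing cells, fell as well (adjusted p = 0.000835). Foxa1 was not well above background in either passage 2 control or in current tumour 3, so no size is given. It passed the background filter only through the passage 1 groups, where it was high. The filter thus favoured a fall, and the Foxa1 call is a description only. The list's median difference was -0.29. The call of Tnfrsf11a held without any single tumour, while those of Bcl2l1 and Nfib were lost when any 1 of 11 and of 8 tumours was left out (adjusted p up to 0.131 and 0.144). Both were also lost under median centring (adjusted p = 0.283 and 0.136) and with no dye term, and that of Bcl2l1 with the mean over its passing probes.

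Of 18 milk genes measured beside the caseins, 5 rose and 1 fell with passage, against 12.1% of all genes called. Wap, Lalba, Cel, Olah and Plin2 rose, by 1.89 ± 0.38, 1.72 ± 0.38, 2.66 ± 0.38, 2.45 ± 0.64 and 1.55 ± 0.17 (SE; limma, adjusted p from 0.000205 to 0.0267). Pip, the prolactin-inducible protein gene, fell with passage (adjusted p = 1.6e-06). It was not well above background in passage 2 control 1 and current tumour 2, so its fitted differences are not given as sizes. Pip passed the background filter only through the passage 1 groups and the groups with prior RANK-Fc, where it was high. The filter thus favoured a fall with passage and a rise with prior RANK-Fc, and both Pip calls are a description only. The list's median difference was 0.43. The call of Lalba was lost without passage 1 control 2 or passage 2 control 1, and that of Olah without passage 1 control 1 or 2, passage 1 RANK-Fc 2, or passage 2 control 1 or 2, and with only the groups compared. Pip rose with prior RANK-Fc averaged over both backgrounds (adjusted p = 8.9e-05), and read 5.95 and 6.58 in the passage 2 controls against 9.10 to 10.01 with prior RANK-Fc and 10.90 to 11.97 with both. With Wap in place of the casein mean, a choice made after seeing the data, the correlation was 0.92 for Elf5 and 0.75 for Stat5a.

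The defining luminal markers were present throughout: the mean of 8 luminal epithelial markers lay between 12.38 and 12.82 in all 16 tumours, while Elf5 correlated with it at r = 0.34 (permutation p = 0.198) and rho = 0.25 (permutation p = 0.347). The mean of 9 fibroblast markers lay between 11.08 and 11.70 in passage 1, 10.12 and 10.72 in the passage 2 controls and 10.55 and 12.47 with current RANK-Fc. It correlated with Socs2 at r = 0.42 (permutation p = 0.102) and rho = 0.48 (permutation p = 0.0612), and with Elf5 at r = -0.29 (permutation p = 0.274) and rho = -0.38 (permutation p = 0.148), with adjusted p from 0.357 to 0.642. The casein mean had r = -0.14 with these markers over the 16 tumours (permutation p = 0.594, adjusted p = 0.851). Its rho was -0.51 (permutation p = 0.0457, adjusted p = 0.357). Current tumour 3, the highest in these markers, was also the highest in caseins. Without the 2 tumours most extreme in the markers r was 0.76 for Socs2, -0.74 for Elf5 and -0.78 for the casein mean. With group means removed it was 0.13, 0.02 and 0.08. The part of fibroblast content in these levels was not tested.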

How the data were processed

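RNA of 16 tumours was hybridised in pairs, 1 in Cy5 and 1 in Cy3, on 8 Agilent arrays. Per the file headers, the scanner images were read by Agilent Feature Extraction 10.7.3.1, and the deposited intensities are median signals of spot and local background and processed signals corrected for background and dye within an array. The deposited log10 ratio, red over green per the file headers, was used only to check the dye direction (r from 0.858 to 0.993 with the processed signals). Quality marks per spot were used as deposited by the authors. A table of 8 columns that match no label was not used.

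Median signals were background corrected (normexp, offset 50), loess and Aquantile normalized and put on a log2 scale with limma 3.58.1 in R 4.3.3 (Python 3.11.15 for correlations). Outlier spots (239 to 337 per array) were left out and repeated spots averaged. A probe passed if all tumours of 1 group or more had it well above background, and the brightest passing probe stood for a gene. Symbols came from RefSeq accessions, and 28026 of 55681 probes had one. All 16 channels entered 1 limma fit of group means and dye, with the array as a block (correlation 0.236, corrected on simulated data from an estimate of 0.415) and 9 residual degrees of freedom, followed by Benjamini-Hochberg adjustment. Correlations used 100000 resamples, or all arrangements where called exact. The fit was tested on simulated data. The number of arrays limits the precision.

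The 7 genes, the gene lists and the tests were chosen with earlier results of these data known. Named genes are the 7, the caseins, the 3 genes most like each, and list genes past the threshold. Alternatives covered background, signal column, normalization, filter, probe choice, dye term, variance, correlation and each tumour left out. Leaving out the array of current tumour 3, and Wap in place of the caseins, were added after seeing the data.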

Additional observations from a re-analysis of the deposited data

How the results depend on the processing

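Passage calls of the 7 genes numbered 3, and 0 with log ratios within arrays alone, 1 to 3 with 1 tumour left out. Between the controls 1 became 0 with log ratios and 0 to 1 with a tumour left out, and in the F test 1 became 0 and 0 to 2. In the main fit the shares of all genes called were 12.1% between passages, 3.34% between controls and 4.95% in the F test. Log ratios alone called 0 genes of all. The shares of all genes with a tumour left out are not given here, so those counts are not read as particular to the 7 genes. Log ratios alone use differences between tumours sharing an array. With them Prlr turned to 0.277 between controls and 0.0677 between passages, and Socs2 to -0.0243 for the passage difference of the effect. Median centring moved the median of all genes by -0.123 between passages, -0.154 between controls, 0.155 with prior, 0.207 with both and 0.165 with prior averaged. Uncalled differences turned sign under it: with prior, Prlr 0.0795 and Stat5b 0.0953; with both, Prlr 0.212, Stat5a 0.264, Elf5 0.204 and Cish 0.215; with prior averaged, Prlr 0.114, Stat5a 0.0972, Stat5b 0.227 and Cish 0.0274; between passages, Stat5b -0.143. Among the uncalled differences that turned sign with a tumour left out, Socs2 ranged from -0.185 to 0.290 for current averaged. It also ranged from -0.662 to 0.764 in passage 1 and from -0.226 to 1.20 for the passage difference of the effect. In passage 1 such differences ranged from -0.154 to 0.282 for Prlr, -0.378 to 0.223 for Stat5a and -0.218 to 0.140 for Stat5b. Stat5b ranged from -0.114 to 0.225 with both, Stat5a from -0.0587 to 0.510 for both against prior, and Prlr from -0.310 to 0.111 between controls. Further turns included Elf5 from -0.0507 to 0.184 in passage 1 and from -0.137 to 0.166 with both. Jak2 ranged from -0.151 to 0.0504 in passage 1 and Stat5a from -0.426 to 0.126 with both.

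The correlation of Elf5 with the caseins lost its call under median centring (0.655), with group means removed (0.804), in passage 2 alone (0.867), for the 8 log ratios (0.896) and with Csn1s2b (0.618) or Csn3 (0.582) alone. That of Stat5a passed with Csn1s1 (0.694) or Wap (0.754). Signs turned for Prlr with Csn3 (0.214), Socs2 with Csn3 (0.000726), and Jak2 (-0.0343) and Stat5b (-0.0478) under median centring. Further turns included Prlr with group means removed (0.206) and Cish with Csn1s1 (-0.0675). The cause of these changes was not tested, except that fewer tumours or arrays enter some. Fits of only the groups compared do not exist for the F test and current RANK-Fc averaged, which use all groups. No paired analysis was possible because the labels give the tumours no replicate numbers that match tumours across groups; the pairs sharing an array entered as a block and as log ratios.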

Other observations

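Among marker lists of other cells, the prior RANK-Fc difference averaged over both passage 2 backgrounds had a median of -0.61 over 7 T and NK cell markers and -0.59 over 8 macrophage markers, against -0.00293 over all genes. All 15 differences were below 0, and 0 of the 15 passed the adjusted threshold of the limma fit, against 0.403% of all genes. Markers of the same cells are not independent of one another. The mean over macrophage markers lay between 10.10 and 11.47 in the 16 tumours. Current tumours 2 and 3 were the highest, at 11.44 and 11.47. Current tumour 1 read 10.17, inside the range of the tumours with prior RANK-Fc.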
